A study of Mus musculus with 6 samples.

Results

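Mammary stem-cell markers and basal transcription factors were followed on 6 two-colour microarrays of mouse mammary cells. The set holds 10 genes of the 34964 named on the array: Procr, Tspan8, Cd1d1, Cd24a, Aldh1a1, Inpp5d, Trp63, Sox9, Sox10 and Bcl11b. They were taken by gene name in the scanner files, which gave 15 probes of 55681; Cd1d1 and Bcl11b had 2 probes each and Trp63 had 4. Dll1-high and Dll1-low cells (1 array each) were CD24+ CD29-high mammary cells of virgin female C57/B6:Dll1-mCherry mice, sorted as mCherry+ (Dll1-high) or mCherry- (Dll1-low). The labels name this sorted population MaSC, for mammary stem cells. Knockout (KO) macrophages (2 arrays) were F4/80+ cells from the mammary glands of virgin female C57/B6:cKO-Dll1 mice, and wild type (WT) macrophages (2 arrays) came from C57/B6 wild type littermates. The labels do not say in which cells Dll1 was removed, nor whether replicates came from separate animals, so p-values measure only the spread between these samples. Each sample was labelled with Cy5 and set against Cy3-labelled universal reference RNA from 11 mouse cell lines, so every level below is a log2 ratio over that reference. Levels of different probes cannot be set against each other on this scale.

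The mammary duct has an inner luminal and an outer basal layer, and cells that can rebuild a gland on transplantation are found in the basal, CD24+ CD29-high gate. Trp63 encodes p63, the transcription factor that specifies basal epithelium, and the surface proteins Procr, Tspan8 and Cd1d1 have each been used to mark subsets of basal cells with high regenerative activity. Dll1 is a Notch ligand, presented by basal cells to neighbouring cells that carry Notch receptors.

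Probe sequences are shown for the genes on which the results turn, 5′ to 3′ in the orientation of the transcript, with mm9 coordinates from the file headers; each probe is 60 bases long and only part is printed where 30 bases are given. Tspan8 and Procr are shown because they differed most between the reporter states, and Sox10 because it separated the cell types while staying level between the states. The Tspan8 probe lies at chr10:115286563-115286622 (plus strand, bases 1 to 30 shown), the Procr probe at chr2:155580945-155581004 (plus strand, bases 25 to 54) and the Sox10 probe at chr15:78985518-78985577 (minus strand, bases 31 to 60). Capitals mark AATAAA, the usual polyadenylation signal.
Tspan8: gcagtctacagatatcttcacaggtattca
Procr: aacatcttactaAATAAAagaagttgtctg
Sox10: tccagcgataccttAATAAAgtacgtagct
The main probes of the other genes lie at chr3:86799791-86799850 (Cd1d1, minus strand), chr10:43303706-43303765 (Cd24a, plus), chr19:20717764-20717823 (Aldh1a1, plus), chr1:89616958-89617017 (Inpp5d, plus), chr11:112648809-112648868 (Sox9, plus) and chr12:109148932-109148991 (Bcl11b, minus); exon annotation of this build was not used here. AATAAA was searched on the transcript strand alone and occurred in 2 of the 15 member probes and in 10.06% of all probes.

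Of the spots, 86.0% (Dll1-high) and 88.1% (Dll1-low) were well above background in Cy5, and between 47.4% and 71.9% in macrophages. A slide and scan held 1 cell type each, so a difference between slides cannot be told apart from one between cell types. Both KO arrays lay in slide column 4 and both WT arrays in column 3, so genotype and slide column cannot be told apart either; replicate 1 of each genotype lay in row 1 and replicate 2 in row 2. WT replicate 1 stood apart: it correlated at 0.423 with WT replicate 2 over all genes, while KO replicate 2 and WT replicate 2 correlated at 0.962. Of 10 macrophage markers, the median log2 ratio was 4.06 and 3.65 in KO replicates 1 and 2, 1.64 in WT replicate 1 and 3.57 in WT replicate 2. The 8 fibroblast markers had medians of -0.51 and -0.72 in KO macrophages, against 0.81 and -1.15 in WT replicates 1 and 2. The 8 basal markers had a median of 4.52 in Dll1-high cells, 4.14 in Dll1-low cells and between 0.33 and 0.64 in macrophages, so the sorted cells carried the basal markers of their gate.

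The first comparison asked whether the markers follow or oppose the level of the Dll1 reporter. With 1 array a state there is no test, and a gene was called different at 1.5-fold or more. Tspan8 was 5.84-fold lower and Procr 1.60-fold lower in Dll1-high cells, and no member was 1.5-fold higher. The basal transcription factors Trp63, Sox9, Sox10 and Bcl11b all stayed within 1.5-fold. Of the 32150 genes compared, 1.58% were at least 1.5-fold lower and 0.684% at least 1.5-fold higher in Dll1-high cells. Of the 10 members, 7 were lower and 3 higher, while 56% of all genes were lower and 44% higher; their median difference was -0.18, beside -0.03 over all genes. Dll1 itself read 3.94 in Dll1-high and 3.26 in Dll1-low cells by its main probe, a difference of 0.68. The spot SD of that difference was 0.134 (10 spots in Dll1-high and 9 in Dll1-low cells). The scanner software's error, here and below, belongs to its own processed log ratios, not to the normalized ones. For Dll1 it was 0.60, from single-spot errors averaged over the spots. With the scanner software's processed signals the Dll1 difference was 0.54, within that error and under 1.5-fold. The other Dll1 probe read 0.38 in Dll1-high and 0.24 in Dll1-low cells.

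Tspan8, a tetraspanin of the cell surface, read -0.77 in Dll1-high cells and 1.77 in Dll1-low cells. Its difference of -2.55 was the lowest of all 32150 genes. With the scanner software's processed signals it was -2.51, with a scanner error of 0.34. In sorted pools, fewer cells of a type and less RNA per cell cannot be told apart. The Cy5 signal carried the difference, at 930 in Dll1-high and 4070 in Dll1-low cells, with Cy3 at 1048 and 912. Procr, the protein C receptor, which endothelium also expresses, read -0.90 in Dll1-high and -0.22 in Dll1-low cells. Its difference of -0.68 ranked 242 from the lowest, with a scanner error of 0.30. Here both channels moved, with Cy5 at 1685 and 2128.5 and Cy3 at 2349 and 1887 in that order of states, and by Cy5 alone the difference was -0.40, under 1.5-fold. Cd1d1, which presents lipid antigens, was lower by 2 probes, at 0.21 in Dll1-high and 0.71 in Dll1-low cells by the main one and -0.14 and 0.29 by the other. The differences of -0.49 and -0.43 stayed under 1.5-fold. Marker lists of other cells were also read, beside 56% of all genes lower with a median of -0.03. In Dll1-high cells 7 of 8 endothelial markers were lower (median -0.28, level 1.16 against 1.57). So were 7 of 8 fibroblast markers (median -0.61, level -0.86 against -0.31) and 8 of 10 luminal markers (median -0.20, level 0.79 against 1.06). Of the macrophage markers 7 of 10 were lower (median -0.08), although their median level was 0.19 against 0.14. B cell (4 of 5 lower, median -0.15), Schwann cell (4 of 5, -0.09) and neutrophil markers (3 of 5, -0.09) were mostly lower. Pericyte markers were 3 higher and 2 lower (median 0.07), and T cell markers 3 and 3 (median -0.02). The part of these markers in the result was not tested.

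The remaining members lay closer to 0. Cd24a, a small glycoprotein and one of the sorting antigens, read 1.75 in Dll1-high and 1.86 in Dll1-low cells. Aldh1a1, an enzyme that makes retinoic acid and is used to sort progenitors by aldehyde dehydrogenase activity, read 0.02 and 0.16 in the same order. Inpp5d, the phosphatase SHIP1 of blood cells, of which a shorter form has been described in mammary stem cells, read -2.28 and -2.06. All 3 differences were under 0.25 in size and within the scanner error. Sox9, a transcription factor of mammary progenitors, read 1.69 in Dll1-high and 1.46 in Dll1-low cells. Its 10 spots gave a difference of 0.24 with a spot SD of 0.074, and this SD covers spotting, not animals. The scanner error for Sox9 was larger, at 0.36, but it averages single-spot errors and is not the error of the mean of 10 spots. Sox10, a close relative of Sox9, active in basal and progenitor cells, read 2.69 and 2.66, a difference of 0.04 within its scanner error of 0.46. Bcl11b, a zinc-finger factor best known from T cells and also described as keeping mammary stem cells quiescent, read 0.41 and 0.22 by its main probe and 0.45 and 0.08 by the other. The main difference of 0.19 lay within its scanner error of 0.30, and the other of 0.37 was above its error of 0.29. With the processed signals, to which the errors belong, the differences were 0.26 and 0.31, on the same sides of those errors. As a yardstick, among the 399 probes spotted 10 times the same spot SD was typically 0.119 (median), and 0.250 marked its 95th percentile.

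**Figure D1:**
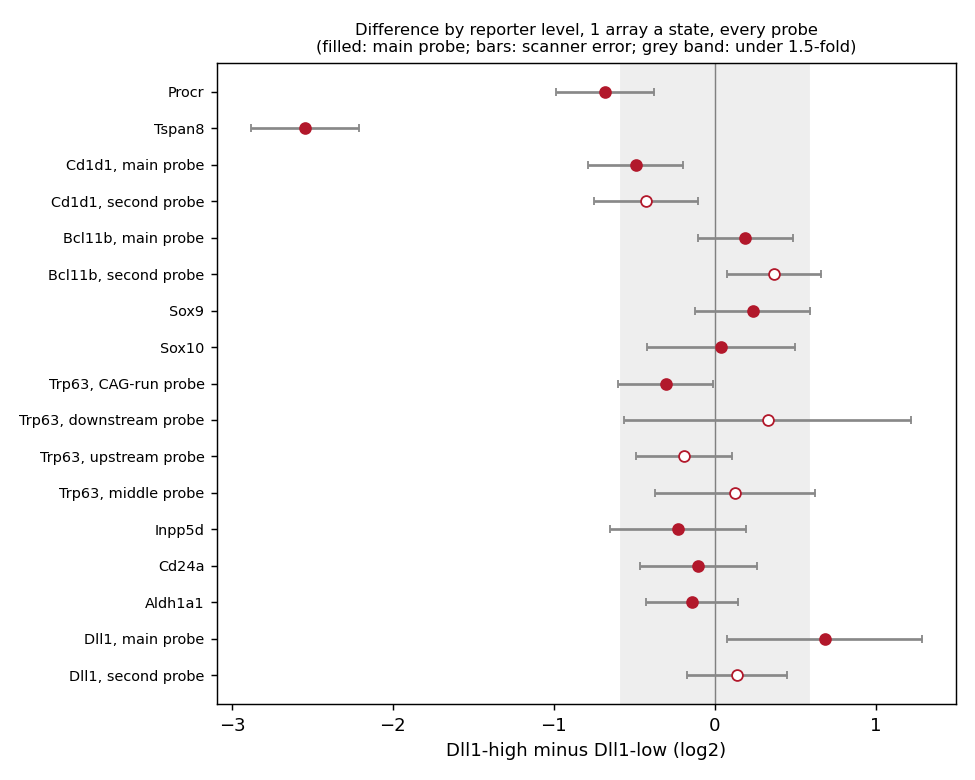
Dll1-high minus Dll1-low (log2, x axis) for each probe of the 10 genes and of Dll1, 1 array a state. Filled points are the probe that stood for the gene, and the grey band marks differences under 1.5-fold. Bars are the scanner software's error, which belongs to its processed log ratios. For probes with several spots it averages single-spot errors. Tspan8 at -2.55 and Procr at -0.68 lie below the band and the main probe of Dll1 at 0.68 above it.

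Trp63 needs its probes told apart. The brightest of its 4 probes, which stood for the gene, lies at chr16:25871159-25871218 (plus strand) and carries an unbroken run of 6 CAG triplets, in capitals; a probe of Crebbp, a co-activator of transcription, at chr16:4084710-4084769 (minus strand) holds a run of the same length and is shown beside it. The most downstream Trp63 probe, at chr16:25892012-25892071 (plus strand, bases 1 to 30 shown), has none.
Trp63 with the CAG run: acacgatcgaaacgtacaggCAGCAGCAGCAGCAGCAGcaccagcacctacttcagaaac
Crebbp: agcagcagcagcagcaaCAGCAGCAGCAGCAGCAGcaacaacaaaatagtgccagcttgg
Trp63 downstream: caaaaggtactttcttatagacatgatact
The probe with the run read 0.47 and 0.77 in Dll1-high and Dll1-low cells, 1.51 and 0.11 in KO macrophages, and 3.23 and 0.31 in WT macrophages. The downstream probe read 6.07 and 5.74 in Dll1-high and Dll1-low cells, -0.46 and 0.18 in KO macrophages, and -1.0 and -0.12 in WT macrophages. So the downstream probe was high in both sorted basal states and near the reference in macrophages, while the probe with the run was highest in WT replicate 1. Between the reporter states the 2 probes pointed in opposite directions, by -0.31 and 0.33, both under 1.5-fold. With the processed signals the differences were -0.26 and 0.33, within their scanner errors of 0.30 and 0.89. Searched on the transcript strand, CAGCAGCAGCAGCAG occurred in 6 probes of the array, 0.01078% of them. The other 5, of Pif1, Git2, Crebbp, BC051142 and Arhgap17, were also each highest of the macrophage arrays in WT replicate 1, at 2.58 to 3.43, and read 0.18 to 0.77 in replicate 2 of either genotype. WT replicate 1 was the highest macrophage array for 36.4% of all probes. Whether the run bears on these values was not tested. The upstream and middle probes, at chr16:25821344-25821403 and chr16:25867718-25867777, stayed between -0.24 and 0.49 on every array, and the middle one was well above background on 2 arrays only.

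**Figure D2:**
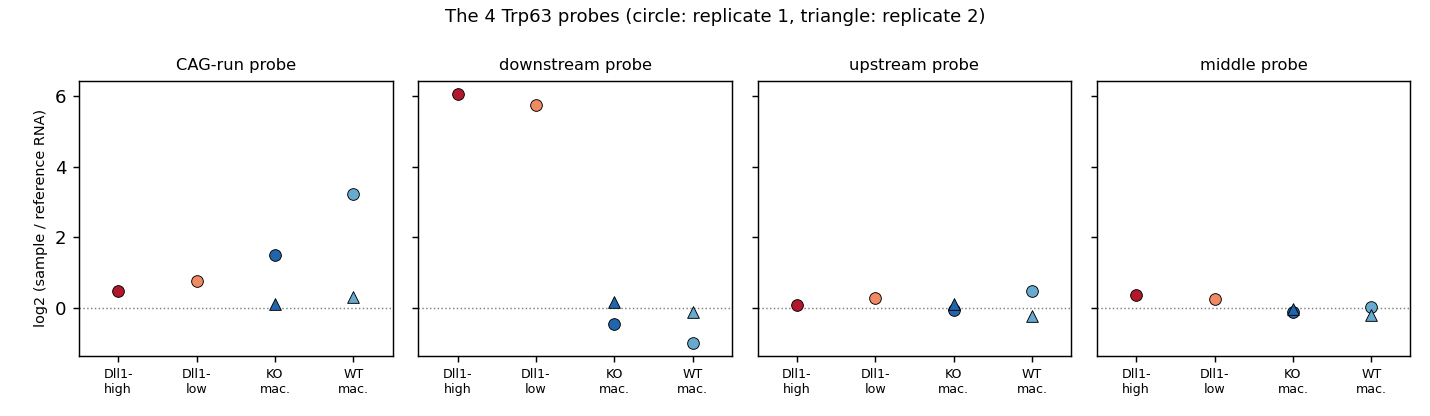
Log2 ratio over the reference RNA (y axis) of the 4 Trp63 probes in Dll1-high and Dll1-low cells (1 array each) and KO and WT macrophages (2 arrays each; circle replicate 1, triangle replicate 2). The downstream probe sets both CD24+ CD29-high arrays, at 6.07 and 5.74, far above all macrophage arrays, none of which exceeds 0.18.

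The second comparison set the 2 CD24+ CD29-high arrays against the 4 macrophage arrays. The 2 are the Dll1-high and Dll1-low sorts, and the 4 pool KO with WT, so they are not replicates of 1 condition. The SDs, SEs and p-values below therefore count differences between reporter states and between genotypes as spread. Sox9, Sox10 and Bcl11b were higher and Inpp5d lower in CD24+ CD29-high cells at a limma adjusted p under 0.05, 4 of 10 members, beside 9.13% of 31044 genes (4.19% higher, 4.94% lower). The arrays of the 2 cell types did not overlap for 8 members, 5 higher and 3 lower, nor for 35.2% of all genes. Sox9 read -0.89 and -0.23 in KO and -0.18 and -0.36 in WT macrophages, and averaged 1.57 ± 0.17 in CD24+ CD29-high cells (SD, n = 2), against -0.41 ± 0.32 in macrophages (SD, n = 4). The difference was 1.99 (SE 0.25, limma adjusted p = 0.00757). Sox10 read 0.48 and 0.53 in KO and 1.20 and 0.39 in WT macrophages, a difference of 2.02 (SE 0.26, limma adjusted p = 0.00900) between a mean of 2.68 ± 0.03 in CD24+ CD29-high cells and 0.65 ± 0.37 in macrophages. Of the 7 markers of Schwann cells, which also use Sox10, 5 were well above background in Dll1-high and 5 in Dll1-low cells. The medians of the 7, -0.05 and -0.01, were the values of Cdh19, which was well above background on no array. They therefore measure no level of these cells. In macrophages the medians lay between 0.06 and 0.22. Bcl11b read -0.53 and -0.54 in KO and -0.80 and -0.55 in WT macrophages, a difference of 0.92 (SE 0.16, limma adjusted p = 0.0222) between a mean of 0.31 ± 0.13 in CD24+ CD29-high cells and -0.61 ± 0.13 in macrophages. T cell markers, 6 in all, had a median of 0.42 in Dll1-high cells, 0.43 in Dll1-low cells and between 0.73 and 1.69 in macrophages. Trp63 was higher by 6.26 (SE 0.35, limma adjusted p = 0.000791) by the downstream probe, a reading chosen after its values were seen, but by the probe with the run it differed by -0.67 (SE 0.90, limma adjusted p = 0.785).

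Inpp5d read 2.76 and 2.68 in KO and 1.89 and 2.15 in WT macrophages, and averaged -2.17 ± 0.16 in CD24+ CD29-high cells against 2.37 ± 0.42 in macrophages. The difference of -4.54 (SE 0.30, limma adjusted p = 0.00117) was the widest of the 10 by the probe that stood for the gene. Procr read 0.74 and 1.91 in KO and 1.5 and 2.56 in WT macrophages. Its CD24+ CD29-high arrays lay below every macrophage array, with a difference of -2.24 (SE 0.52, limma adjusted p = 0.054). Endothelial markers, which Procr accompanies in vessels, had medians of 1.35 and 1.81 in KO and 2.29 and 2.31 in WT macrophages; their part in the result was not tested. Cd1d1 read 2.14 and 2.65 in KO and 1.46 and 3.13 in WT macrophages, and its difference was -1.88 (SE 0.48, limma adjusted p = 0.070). Cd24a read 1.43 and 1.02 in KO and 0.97 and 0.79 in WT macrophages, below both CD24+ sorts, by a difference of 0.75 that did not pass (SE 0.21, limma adjusted p = 0.091); Cd24a was part of the sort. Tspan8 read -1.31 and -0.95 in KO and -2.69 and -1.34 in WT macrophages and was not well above background in WT replicate 1. Its difference of 2.07 (SE 0.81, limma adjusted p = 0.206) spans the wide gap between its 2 CD24+ CD29-high arrays. The other Cd1d1 probe read 1.28 and 1.21 in KO and -0.58 and 1.53 in WT macrophages, so there the cell types overlapped through WT replicate 1 (difference -0.79). The other Bcl11b probe read -1.10 and -1.09 in KO and -1.88 and -0.66 in WT macrophages, below both CD24+ CD29-high arrays as with the main probe (difference 1.44), and was not well above background in WT replicate 2. Aldh1a1 read -1.44 and -1.27 in KO and 0.12 and -1.72 in WT macrophages and overlapped between cell types (difference 1.16, SE 0.53, limma adjusted p = 0.275). Without WT replicate 1, 7 members passed, Procr, Cd1d1 and Aldh1a1 being added; without either CD24+ CD29-high array, only Inpp5d passed. Sox10 and Bcl11b did not pass with the scanner software's processed signals or the authors' table, and Bcl11b did not by Cy5 alone. Under median centring Inpp5d (-3.53, limma adjusted p = 0.107) and Bcl11b (1.22, limma adjusted p = 0.117) did not pass and Aldh1a1 did (1.77, limma adjusted p = 0.0280).

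**Figure D3:**
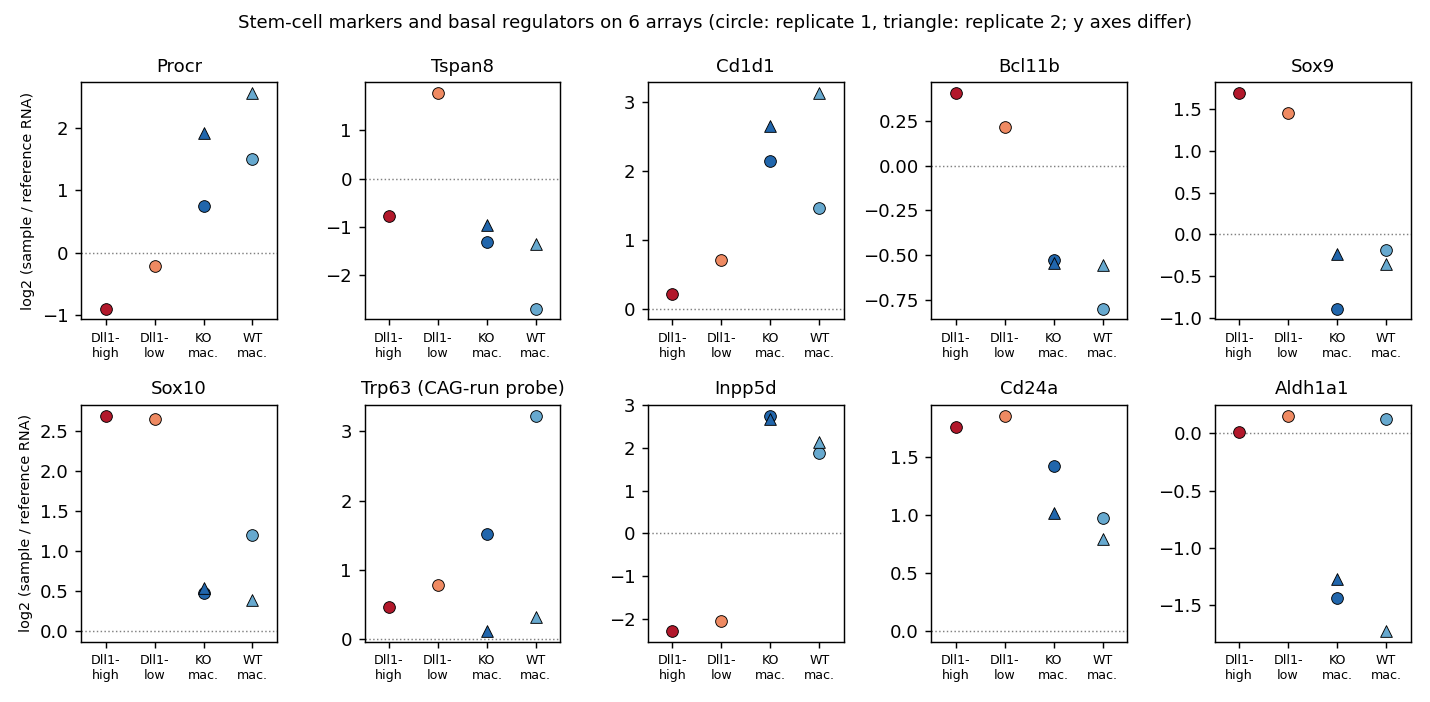
Log2 ratio over the reference RNA (y axes, each gene on its own scale) of the probe that stood for each of the 10 genes, in Dll1-high and Dll1-low cells (1 array each) and KO and WT macrophages (circle replicate 1, triangle replicate 2). Sox9, Sox10 and Bcl11b are higher and Inpp5d lower on both CD24+ CD29-high arrays than on any macrophage array.

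The third comparison asked whether these genes differed between macrophages of conditional knockout and wild type glands. Dll1 read 0.80 and 2.25 in KO and 0.78 and 3.24 in WT macrophages, so the targeted gene did not separate the genotypes. None of the 10 members passed a limma adjusted p of 0.05, and none had an unadjusted p under 0.05; over all 24766 genes tested, 0 passed (0%) and 31 had an unadjusted p under 0.05 (0.125%). With 2 arrays a genotype and WT replicate 1 apart from its partner, these p-values do not show that the genes did not differ. KO and WT arrays did not overlap for 4 members, Tspan8, Bcl11b, Inpp5d and Cd24a, all higher in KO, beside 20.1% of all genes (6.66% higher and 13.5% lower in KO). Inpp5d differed by 0.70 (SE 0.32), with 0.87 within slide row 1 and 0.53 within row 2. Tspan8 differed by 0.88 (SE 0.57), with 1.37 and 0.39 within the rows; it was 0.21 without WT replicate 1 and 2.198 with the scanner software's processed signals. Cd24a differed by 0.34 (SE 0.34) and Bcl11b by 0.14 (SE 0.32). Within row 2 the Bcl11b difference was only 0.0083. The other Bcl11b probe read -1.10 and -1.09 in KO and -1.88 and -0.66 in WT, so there the genotypes overlapped. Procr differed by -0.70 (SE 0.63) and was lower in KO within both rows, by -0.75 and -0.64; with 1 array left out it ranged from -1.28 to -0.11, and median centring turned it to 0.44. The next 4 pointed in opposite directions within the 2 rows: Cd1d1 differed by 0.10 (SE 0.68), Sox9 by -0.29 (SE 0.39), Sox10 by -0.29 (SE 0.42) and Aldh1a1 by -0.55 (SE 0.71). Trp63 differed by -0.96 (SE 1.16) by the probe with the run, with -1.72 and -0.20 within the rows, and 0.42 (SE 0.48) by the downstream probe. For all 10 genes the limma adjusted p was 0.999. The macrophage markers were higher in KO like Inpp5d, by a median of 0.74, as were the B cell markers (0.76) and T cell markers (0.29). Between the replicate 2 arrays their medians lay close together. They were 3.65 in KO and 3.57 in WT (macrophage), 0.83 and 0.87 (B cell) and 1.12 and 1.22 (T cell). Pericyte (0.40), neutrophil (0.19) and basal (0.18) markers were also higher in KO, and luminal (-0.15) and Schwann cell (-0.05) markers lower. The endothelial markers were lower in KO like Procr, by a median of -0.77, and the fibroblast markers by -0.51. Between the replicate 2 arrays the fibroblast markers went the other way, with medians of -0.72 in KO and -1.15 in WT. The endothelial medians there were 1.81 in KO and 2.31 in WT. The part of all these markers in the differences was not tested.

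**Figure D4:**
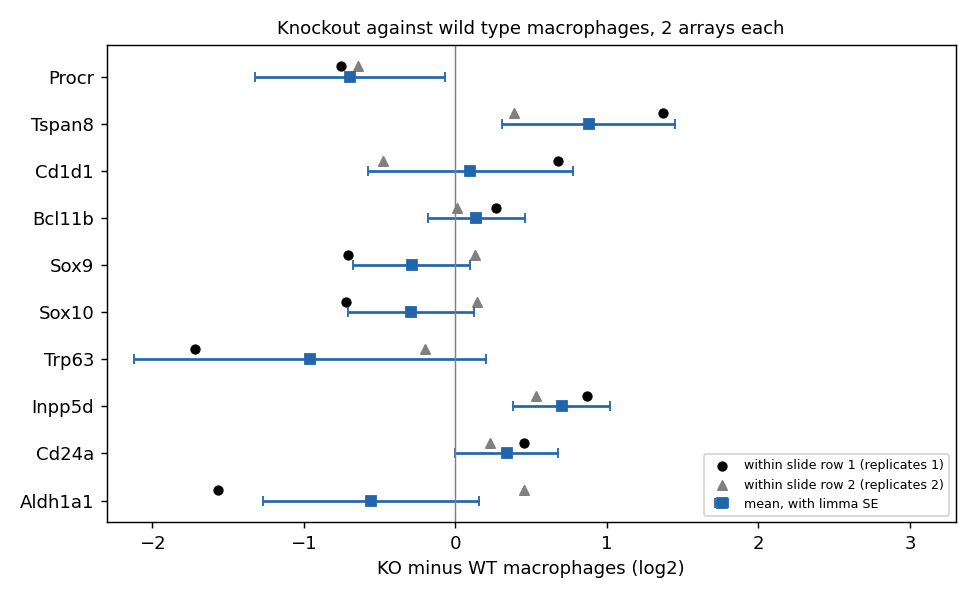
KO minus WT macrophages (log2, x axis) for the 10 genes: squares are the mean difference with its limma SE, and circles and triangles the difference within slide rows 1 and 2, which hold replicates 1 and 2. Inpp5d, Tspan8, Cd24a and Bcl11b lie right of 0 in both rows, Bcl11b by only 0.0083 in row 2. Procr and Trp63 (by the probe with the CAG run) lie left of 0 in both rows. No gene passed the test.

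Other genes of the same kind were read from 2 lists. Over all genes, 56% were lower in Dll1-high cells, 1.58% at least 1.5-fold lower and 0.684% at least 1.5-fold higher, with a median of -0.03. Of 25 further stem cell and basal surface genes, 8 were higher and 17 lower in Dll1-high cells, with a median of -0.15. Aldh2, an aldehyde dehydrogenase of mitochondria, was the only one at least 1.5-fold lower, at -0.67 in Dll1-high and 0.09 in Dll1-low cells. Ly6a, the antigen Sca-1, followed with a difference of -0.42, and the highest were the integrins Itgb3 at 0.48 and Itga6 at 0.34. Of 35 further transcription factors of the mammary epithelium, 18 were higher and 17 lower, with a median of 0.02. Elf5, a luminal alveolar regulator, read 0.27 in Dll1-high and 1.57 in Dll1-low cells, and Tbx3 read 1.70 and 2.52; these were the 2 lower by at least 1.5-fold. Tbx2, a T-box factor like Tbx3, was the 1 higher, at 1.23 and 0.34, followed by Klf5 with a difference of 0.48. Against macrophages, 10 of 25 surface genes passed as higher in CD24+ CD29-high cells and 3 as lower, and 10 of 35 transcription factors as higher and 4 as lower, beside 4.19% and 4.94% of all genes. Among the surface genes, with Lgr5 left out, the highest were Cdh3, the P-cadherin of basal cells (5.39), and the keratin Krt17 (3.98). The lowest were Kit (-2.31) and Cdh5 (-2.18), which did not pass. Lgr5, a receptor that amplifies Wnt signals and 1 of the 10, read 4.54 and 4.90 in Dll1-high and Dll1-low cells but was well above background on 0 of 4 macrophage arrays. It entered the test only through the arrays where it was high, so no difference is given. Among the factors the highest were Id4, an inhibitor of basic helix-loop-helix factors (4.81), and Klf5 (3.88), with Zeb2 (-3.74) and Zeb1 (-2.50), which repress epithelial genes, the lowest. In KO against WT macrophages no gene of either list passed, of 24 and 32 tested. An unadjusted limma p under 0.05 was found for 0.125% of all genes and for 1 listed gene, the endothelial cadherin Cdh5 (-2.12, SE 0.42). Beside it the extremes were Kit (1.15), Krt17 (0.57) and Ly6a (-0.66) among the surface genes, and Bcl11a (1.39), Zeb2 (0.98), Etv4 (-1.08) and Tbx3 (-1.04) among the factors.

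Near copies were read because a 60-base probe can bind a related transcript. Aldh1a7 read 0.98 in Dll1-high and 1.97 in Dll1-low cells, a difference of -0.99, while Aldh1a1 differed by -0.14; on the macrophage arrays it read -0.40 and 0.05 in KO and -0.53 and -0.10 in WT, and it was well above background on 3 arrays. Cd1d2 read 0.89 and 1.21 by its main probe, lower in Dll1-high cells like Cd1d1. In KO macrophages it read 1.22 and 0.97 and in WT macrophages 3.81 and 1.03, highest in WT replicate 1, where Cd1d1 was lowest among macrophages. The other Cd1d2 probe, well above background on 3 arrays, read 0.10 and 0.40 in Dll1-high and Dll1-low cells. It read -0.01 and 0.36 in KO and 0.01 and 0.53 in WT macrophages, so WT replicate 1 was not highest there. Trp73 read 1.13 and 1.33 in Dll1-high and Dll1-low cells, 1.15 and 0.58 in KO and 2.60 and 0.39 in WT macrophages by its main probe, a difference of -0.21 between the reporter states. Its other probes disagreed with it, one at 0.86 in Dll1-high and -0.03 in Dll1-low cells (0.89, well above background on 2 arrays) and one at 0.49 in both. Sox8 stayed between 0.05 and 0.52 and was well above background on 2 arrays, unlike Sox10. Bcl11a read 0.12 and 0.16 in Dll1-high and Dll1-low cells, 2.89 and 3.18 in KO macrophages and 0.51 and 2.79 in WT macrophages by its main probe. Its other 2 probes did not place every macrophage array above the sorted cells: one read -0.03 and 0.29 in Dll1-high and Dll1-low cells, 1.89 and 1.69 in KO and -0.18 and 1.44 in WT macrophages, the other 0.27 and 0.31 in the sorted cells and between -0.15 and 0.27 in macrophages. Inppl1 read -1.45 in Dll1-high cells, -1.09 in Dll1-low cells and between -1.81 and -0.10 in macrophages. Over the 6 arrays, the genes nearest to Tspan8 among 18635, by Euclidean distance of their log2 ratios, were Dync2li1 (1.70), Slc35g1 (1.86) and Wnt9a (1.90). The distance compares ratios over the reference, not amounts of transcript. In Dll1-high and Dll1-low cells they read 0.46 and 0.96, 0.88 and 1.44, and -0.13 and 0.41, against -0.77 and 1.77 for Tspan8. None of them shared the size of its difference. The genes nearest to Cd1d1 lay closer, Batf (0.39), Mylip (0.54) and Aldh1a2 (0.68). For the Trp63 probe with the CAG run they were Tmod4 (0.28), Ccdc28a (0.30) and Otof (0.39), whose probes hold no such run.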

How the data were processed

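The scanner files hold spot and local background intensity values, unprocessed per the file headers, from Feature Extraction 11.0.1.1 (CD24+ CD29-high) and 12.0.2.2 (macrophages); the submitters' processing notes give 11.0. Their log ratios are log10 of sample over reference, per the file headers. In the authors' own table the values are log2 ratios and followed these with slopes between 1.00 and 1.01; column medians were -0.117 to 0.139, the direction was sample over reference, and genes were not centred. Median signals were background-corrected with normexp (offset 50) with loess applied to every array separately (limma 3.58.1, R 4.3.3, version 1.17.8 of data.table). Each array held 62976 spots, of which 3671 were controls. Of the spots that were not controls, those marked as outliers were left out (170 to 500 an array), and the others were averaged to probes. The probe with the highest mean signal stood for its gene. Genes entered a comparison when well above background in Cy5 on 1 or more of 2 arrays of the reporter states, 2 of 4 macrophage arrays, or 2 of 6, with limma and Benjamini-Hochberg adjustment. Probes were named by accession (27509) or by the array design (28172). The text names every member, Dll1, the 2 highest and 2 lowest genes of each list in a comparison, near copies, and the 3 genes nearest to Tspan8, Trp63 and Cd1d1. The members and lists were chosen with earlier results of these data known. Dyes were not swapped. The number of arrays limits the precision. The scripts were tested on simulated data.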

Additional observations from a re-analysis of the deposited data

How the results depend on the processing

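The 1.5-fold calls of Tspan8 and Procr held under the scanner software's processed signals, the authors' table, median centring, an offset of 16, the mean of all probes and no filter; by Cy5 alone 1 member was 1.5-fold lower. No alternative gave a member 1.5-fold higher. The members past the threshold between cell types numbered 4, but 2 with the processed signals and 2 with the authors' table (Sox10 and Bcl11b lost), and 1 to 7 with 1 array left out. Over all genes, 2835 passed (1300 higher, 1535 lower), against 1034 under median centring (949 higher, 85 lower), 1403 with the processed signals and 1398 with the authors' table. At 1.5-fold, 220 genes were higher and 507 lower, against 1234 and 1933 with the processed signals, 1236 and 1927 with the authors' table and 455 and 886 with the offset of 16. Median centring moved the median KO minus WT of all genes to 0.46 and that between cell types to 0.19, and turned KO minus WT of Procr (0.44), Sox9 (0.57), Sox10 (0.15), Trp63 (0.23) and Aldh1a1 (0.42), and Trp63 between cell types (0.0468); the cause was not tested. Cy5 alone turned KO minus WT of Sox9 (0.0675) and Sox10 (0.0187). Trp63 between cell types was 1.53 by the mean of its probes; by the downstream probe, an alternative chosen after seeing the data, it was 6.26, and its KO minus WT 0.42. With 1 macrophage array left out, KO minus WT ranged from -0.62 to 0.0393 for Sox9, -0.73 to 0.93 for Cd1d1, -0.70 to 0.12 for Sox10, -2.42 to 0.50 for Trp63, -1.48 to 0.37 for Aldh1a1, -1.28 to -0.11 for Procr and 0.21 to 1.55 for Tspan8, and 0 to 0 members passed. With the replicate number as a block, 0 members and 0 genes passed and 142 genes had an unadjusted p under 0.05; deviations of same-numbered arrays correlated at 0.595, and the labels state no pairing. Where an arm kept 1 array, it was assumed to vary like the others.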
